A study of Mus musculus with 9 samples.

Results

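The comparison described here set lungs of DJ-1 knockout mice against lungs of wild-type mice, both challenged with ovalbumin (OVA). It compared 6 of the 9 libraries of the series, 3 of the group DJ1_KO_OVA (DJ1_KO_OVA_263, DJ1_KO_OVA_266 and DJ1_KO_OVA_267) and 3 of the group WT_OVA (libraries 5, 6 and 9). Values of a group are given below in this order. Of the 55851 genes in the deposited table, the 17716 with a mean level of at least 0.2 FPKM (fragments per kilobase of gene length, scaled to the depth of the library) over the 9 libraries were tested. The libraries were made from total RNA of lung, labelled as total lung cells, of female C57BL/6J mice at 7 weeks, and the labels do not say whether 7 weeks is an age or the length of the protocol. The third group, WT_PBS, holds 3 libraries from wild-type mice given saline, and its values are set beside the others to show the unchallenged level. Its libraries also entered the filter on the mean level and the estimate of spread behind every p-value. No knockout was measured without OVA, so the response of the knockout to the challenge is not part of the design, and a difference between DJ1_KO_OVA and WT_OVA may have been there before the challenge. How the knockout allele was made, whether the knockout and wild-type mice were littermates, and whether a library is 1 animal or a pool are not stated in the labels.

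DJ-1 is a small protein encoded by Park7 that senses oxidants through a reactive cysteine. It is known from inherited early Parkinson disease, from the protection of mitochondria and from its effect on the antioxidant regulator NRF2. In the OVA model of allergic asthma, sensitised mice inhale ovalbumin, and T helper 2 cells and group 2 innate lymphoid cells release interleukin-4, interleukin-5 and interleukin-13. These cytokines drive eosinophil recruitment, mucus secretion by the airway epithelium, alternative activation of macrophages and matrix deposition.

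Against WT_OVA, 1051 genes were higher in DJ1_KO_OVA, 5.93% of those tested, and 1459 were lower, 8.24%. Together 14.2% passed the test, which was limma's moderated test on log2(FPKM + 0.5) at a Benjamini-Hochberg adjusted p below 0.05, and "rose", "fell", "higher" and "lower" are used of genes that passed it. Log2 differences are knockout minus wild type on that scale and understate the change of genes with low levels. Of the called genes, 1606 differed by more than 2-fold (559 higher and 1047 lower), and in 2492 the 3 knockout values and the 3 wild-type values did not overlap. Over all tested genes the knockout values lay entirely above the WT_OVA values in 18.4% and entirely below in 18.8%. The 6 libraries held 20812192 to 28339649 recovered reads. The knockout libraries stood apart from all wild-type libraries along the first principal component of the 9 libraries, and DJ1_KO_OVA_266 lay nearest to the wild-type libraries. The sum of all FPKM values was 308540 to 472550 in the knockout and 570480 to 602050 in WT_OVA, so that rescaling every library to an equal sum moved the median gene by 0.46 (log2) and turned the split into 4432 higher and 602 lower genes. Counts also moved with each single library. They were 210 higher and 338 lower without wild-type library 5, 138 and 310 without wild-type library 6, 160 and 317 without wild-type library 9, 648 and 549 without DJ1_KO_OVA_263, 2721 and 2973 without DJ1_KO_OVA_266, and 125 and 161 without DJ1_KO_OVA_267. A set of 237 genes (86 higher and 151 lower) passed in all 6 of these fits as well as in the full one, and it is called the stable set here. The filter lets a gene in through 1 group, and 81 of the 1051 higher genes averaged below 0.2 FPKM over the 6 wild-type libraries. As it is not stated that the 3 libraries of a group come from separate animals, p-values reflect only how far these libraries differ, which may be technical. An exact permutation test of 3 against 3 libraries cannot go below p = 0.1, and none was used for single genes.

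**Figure D1:**
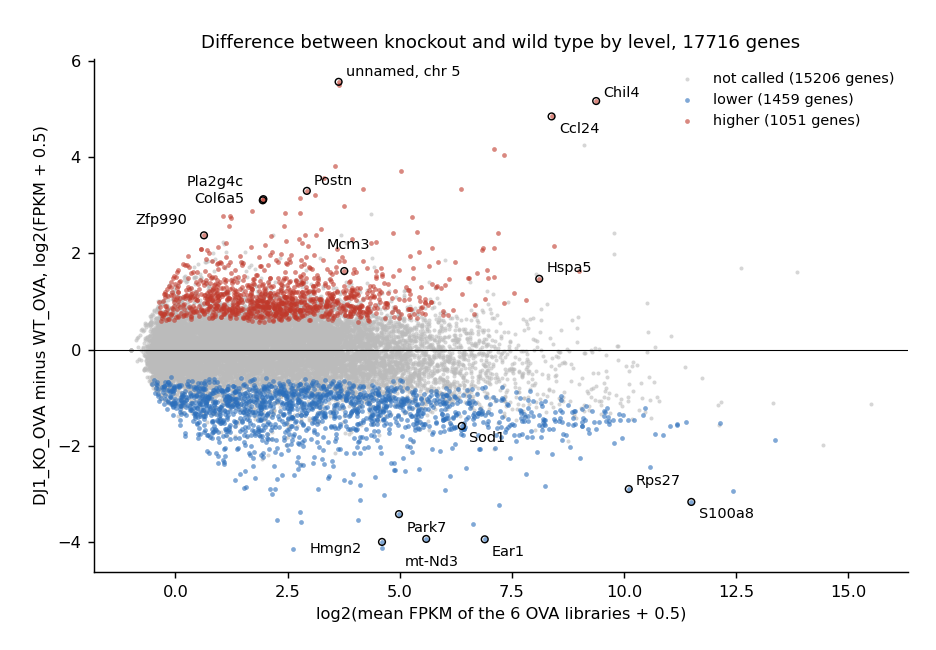
Difference between DJ1_KO_OVA and WT_OVA (vertical, log2 of FPKM + 0.5) against the mean level of the 6 OVA libraries (horizontal, log2 of FPKM + 0.5), 1 point per gene, with the 1051 higher genes in red, the 1459 lower genes in blue and the other tested genes in grey. Chil4 and an unnamed chromosome 5 locus lie at the top, and Park7, Hmgn2, Ear1 and mt-Nd3 lie among the lowest points.

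Park7 (chr4:150897133-150914437, minus strand, GRCm38.p6) was the check on the genotype. Its level was 57.9, 53.1 and 60.5 FPKM in wild-type libraries 5, 6 and 9, and 3.96, 7.29 and 3.98 FPKM in DJ1_KO_OVA_263, DJ1_KO_OVA_266 and DJ1_KO_OVA_267. The saline libraries held 49.6, 53.8 and 36.7 FPKM. The groups did not overlap, and the difference was -3.42 ± 0.25 (SE) with a limma adjusted p of 0.00019. Reads over the gene were still counted in every knockout library, and gene-level values do not show which exons they came from. DJ1_KO_OVA_266, which was nearest to the wild type along the first principal component, also held the highest remaining Park7 level.

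Within 10 Mb on either side of Park7, 200 genes were tested, Park7 included. Of these 8 were higher and 29 lower in the knockout, beside 5.93% and 8.24% over all genes. The higher share was thus below that over all genes and the lower share above it. Zfp990, a zinc finger gene, was listed at 0 in every WT_OVA and WT_PBS library and at 1.89, 1.95 and 2.49 FPKM in the knockout. The groups did not overlap. Its log2 difference was 2.38 ± 0.17 (limma adjusted p = 0.00019) and depends on the added 0.5 because the wild-type values are 0.

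The opposite pattern was found beside it. Zfp984 measured 8, 7.55 and 9.59 FPKM in the wild type and 1.49, 0.698 and 0.8 FPKM in the knockout (-2.60 ± 0.27, limma adjusted p = 0.00098). Zfp993 went from 0.654, 0.445 and 0.439 FPKM to 0.0456, 0 and 0, and Zfp991 from 1.32, 1.54 and 2.42 to 0.279, 0.392 and 0.406. An unnamed locus at chr4:149433646-149439196 fell from 8.46, 14 and 13.3 FPKM to 0.895, 0.45 and 0.707. Among the 18 zinc finger genes tested on chromosome 4, 1 was higher and 5 were lower (27.8%), and among 341 zinc finger genes on other chromosomes 6 were higher and 15 lower (4.40%). The zinc finger genes of this cluster are near-identical copies of each other, so reads may have been assigned to the wrong member.

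Other lowered genes of the window have a range of functions. Slc25a33, a mitochondrial pyrimidine nucleotide carrier, fell from 14.7, 13.3 and 12.4 FPKM to 4.16, 5.99 and 4.44 (-1.40). Fbxo44 and Fbxo2, neighbouring subunits of ubiquitin ligases, fell by 1.70 and 1.5, and Hes2, a basic helix-loop-helix repressor, fell by 1.32. The transcripts Gm13056, Znf41-ps and Gm20707 fell by 2.14, 1.72 and 1.45, and an unnamed locus beside Hes2 (chr4:152165414-152176151) fell by 1.77. The remaining lowered genes were Rpl22 (a ribosomal protein), Thap3, C1qtnf12, Prxl2b, Megf6, Miip, Smim1, Vwa1, Arhgef19, Gm13212, Ankrd65, Camta1, Fam131c, Gm13080, Atad3aos and 1 further unnamed locus, with differences between -1.42 and -0.72. The raised genes of the window included Spsb1, Slc35e2, Perm1, Nmnat1 (the nuclear NAD synthase) and Dffa, with differences between 0.68 and 0.97. The counts in the window ranged from 3 to 19 higher and from 10 to 49 lower when single libraries were left out, and equal sums turned them into 56 higher and 16 lower.

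Along all of chromosome 4, 64 of 1055 genes were higher and 120 lower. Membership of the stable set was counted on either side of Park7, with Park7 itself left out. On the side of lower coordinates it was 9.30% of the 43 genes lying 5 to 10 Mb away and 9.23% of the 65 genes within 5 Mb. On the other side it was 2.63% of the 76 genes within 5 Mb and 0% of the 15 genes lying 5 to 10 Mb away. Over the whole chromosome, Park7 included, it was 2.75%, beside 1.34% over all tested genes. Hmgn2, which encodes a nucleosome-binding protein and lies about 17 Mb from Park7 (chr4:133964738-133968650), had the largest fall on the chromosome. It measured 52.4, 35.9 and 47.5 FPKM in the wild type and 2.81, 2.57 and 1.72 FPKM in the knockout (-4.0 ± 0.27, limma adjusted p = 0.00013), a level below that of Park7 in the same libraries. No other member of the high mobility group list of 10 genes passed. The loss of DJ-1 and any other difference in chromosome 4 sequence between the knockout and wild-type mice cannot be told apart in this design.

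**Figure D2:**
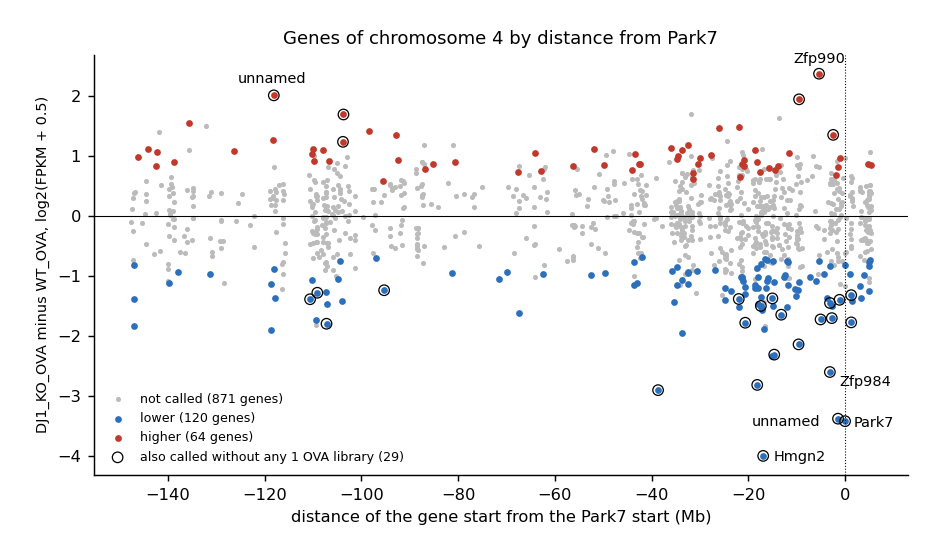
Difference between DJ1_KO_OVA and WT_OVA (vertical, log2 of FPKM + 0.5) of the 1055 tested genes of chromosome 4 against the distance of the gene start from the start of Park7 (horizontal, Mb), with higher genes in red, lower genes in blue and circles around genes that also passed without any 1 OVA library. Zfp990 is the highest point, and Zfp984, Hmgn2 and Park7 lie among the lowest.

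Processed pseudogenes are intronless copies of other genes. Of 1162 tested, 20 were higher (1.72%) and 208 lower (17.9%), beside 5.93% and 8.24% over all genes. When each was matched to its most similar gene by sequence, 27 had that gene on chromosome 4 within 22 Mb of Park7. Of those 27, 7 were higher (25.9%), whereas 10 of the 1057 with the matching gene on another chromosome were higher (0.946%). The lower share was the same in both, with 5 of the 27 (18.5%) and 196 of the 1057 (18.5%). This grouping was chosen after the values were seen, and 3 of the 7 (Gm4864, Gm6724 and Gm7850) reached the 0.2 FPKM needed for testing only through the knockout libraries. Gm10093 and Gm4864, both copies of the histone deacetylase gene Hdac1, held 4.76, 4.14 and 5.14 FPKM and 0.0713, 0 and 0 FPKM in the wild type, and 30.8, 21.9 and 22.7 FPKM and 4, 3.25 and 2.21 FPKM in the knockout. Hdac1 itself was lower, at 21.4, 20.5 and 25.3 FPKM in the wild type and 13.3, 9.75 and 9.21 FPKM in the knockout.

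The other 5 of those pseudogenes were Gm6724, a copy of Hmgn2 (2.56), Gm8539, a copy of Zbtb8os (2.03), Nudc-ps1 (1.65), Gm7850, a copy of Sfn (1.53), and Gm10036, a copy of the ribosomal protein gene Rpl11 (1.52). Their source genes Hmgn2, Sfn and Rpl11 were lower (-4.0, -1.51 and -1.5), and Zbtb8os (-0.73) and Nudc (0.02) did not pass. Other copies of Hmgn2 and of Rpl11 were among the 5 pseudogenes of this group that fell. Nudc-ps1 rose from 13.5, 16.8 and 14.1 FPKM to 49.4, 50.8 and 42.1 while Nudc stood at 51.3, 55.3 and 47.4 FPKM and at 53.7, 53.9 and 48.3. Reads from a gene and from a near-identical copy cannot be told apart by a gene table, so these pairs describe where reads were assigned.

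The table leaves 23 loci unnamed that it annotates with a retroviral envelope domain, and 19 of them were tested. Endogenous retroviruses are proviral copies inherited in the germ line, and many of their insertions differ between mouse strains. In 10 of the 19 the 6 wild-type libraries averaged below 0.2 FPKM, so that they were tested only because of their knockout values, and all 10 were among the higher ones. Of the other 9, 6 were higher in the knockout and 0 lower, beside 5.93% and 8.24% over all genes. The 16 higher loci were spread over 10 chromosomes, and 2 of them were on chromosome 4. The clearest was at chr5:24215307-24222085, listed at 0, 0.0264 and 0 FPKM in WT_OVA and at 20.2, 22.8 and 28.6 FPKM in the knockout (5.57 ± 0.18, limma adjusted p = 2.4e-07), the smallest p of all tested genes. The saline libraries held 0.0141, 0.0147 and 0.0197 FPKM there.

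Loci at chr6:73287164-73293607 (0.178, 0.0374 and 0.131 against 3.21, 3.19 and 4.41 FPKM), chr10:41436650-41445631 (0 in all 3 against 1.06, 1.03 and 1.11) and chr7:29615206-29623837 (0, 0 and 0.0164 against 1.33, 0.957 and 1.45) also rose from low levels in WT_OVA. The chr6 locus was not off in the wild type, and the saline libraries held 0.0401 to 0.375 FPKM there. A locus at chr1:170941521-170950511 rose less evenly, from 2.36, 0.756 and 2.6 FPKM to 4.67, 38.8 and 57.1. Leaving out single libraries gave between 10 and 16 higher loci, the fewest without DJ1_KO_OVA_267, and the count was 14 without the pair of DJ1_KO_OVA_263 and wild-type library 6. Gm5575, a pseudogene of the chaperone gene Hspa8 about 6 kb from the chromosome 5 locus, was at 0 in all wild-type libraries and at 0.876, 1.49 and 0.822 FPKM in the knockout. The retroviral copies are alike, and the assignment of reads among them is uncertain.

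Counted in reads, 9 genes or loci had at most 3 reads over all 6 wild-type libraries and at least 10 in each knockout library, Zfp990 among them. Gm42031, a gene model on chromosome 8, was the most abundant, with 3 reads over the 6 wild-type libraries and 806 to 1492 in each knockout library. The reverse pattern was found for 2 genes, Zfp993 and the mitochondrial glycine tRNA gene mt-Tg. These all-or-none genes were named after their values were seen.

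Among the 15 largest rises was Pla2g4c, a cytosolic phospholipase A2 that frees arachidonic acid from membranes. It stood at 0.264, 0.14 and 0.461 FPKM in WT_OVA and at 9.02, 4.71 and 5.52 FPKM in DJ1_KO_OVA (3.10 ± 0.26, limma adjusted p = 0.00032), and at 0.05 to 0.195 FPKM in saline. Pla2g4c averaged below 0.2 FPKM over the wild-type libraries and was tested only because of its knockout values. Cnbd2, a cyclic nucleotide-binding protein, rose from 0.537, 0.81 and 1.01 FPKM to 5.03, 11.1 and 11.3 (2.84). Bex2, a small adaptor protein, fell from 35, 55.5 and 40.5 FPKM to 10.5, 2.95 and 3.44 (-3.03). These 3 genes belong to the stable set.

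**Figure D3:**
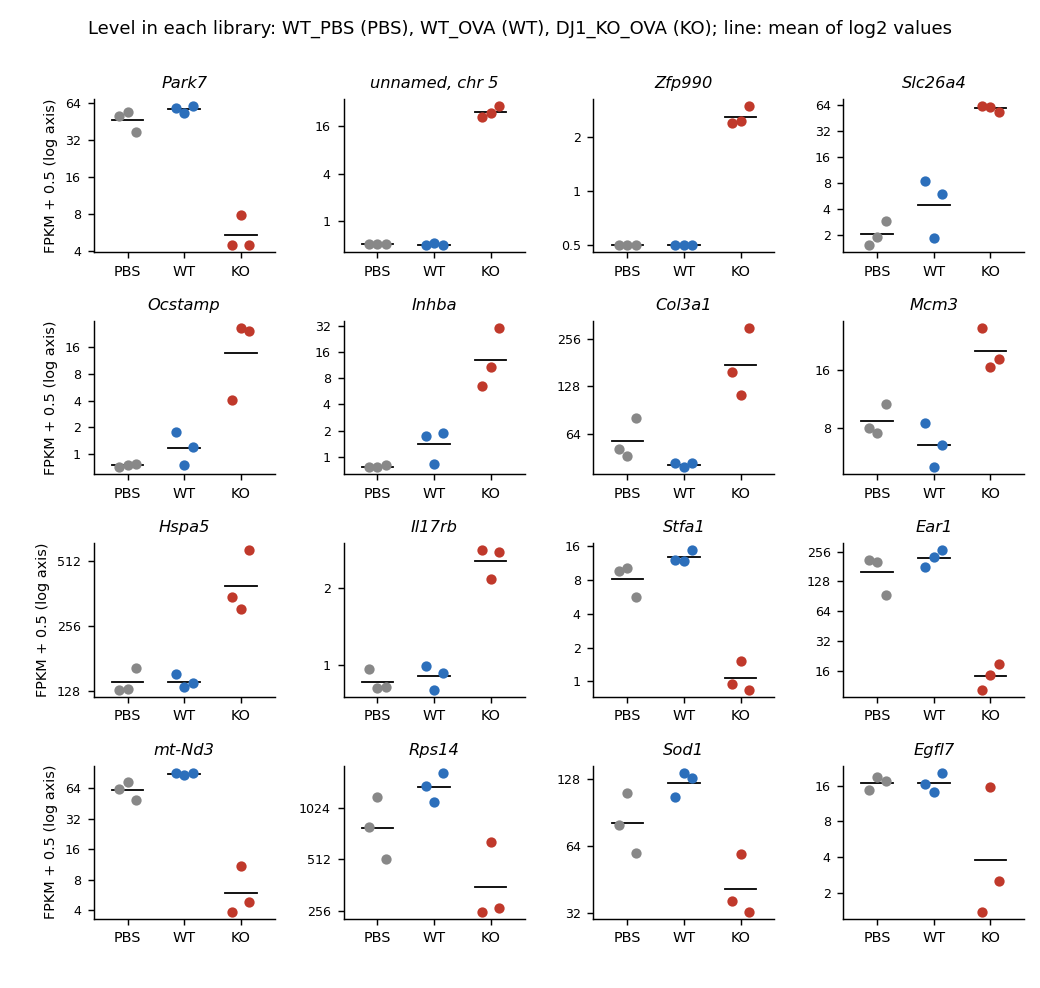
FPKM + 0.5 (log axis) of 16 genes in each library, with WT_PBS in grey, WT_OVA in blue and DJ1_KO_OVA in red, 1 point per library, and lines at the mean of the log2 values. Park7, Stfa1, Ear1 and mt-Nd3 fall in the 3 knockout libraries, Zfp990 and the unnamed chromosome 5 locus rise from at or near 0, and DJ1_KO_OVA_266 lies with the wild type for Egfl7.

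Receptors and signaling genes of the type 2 response were higher in 9 of 19 and lower in 0, with a median difference of 0.80, and epithelial alarmins and their receptors in 4 of 11 and lower in 1. Of the latter list 1 was higher without wild-type library 6, and 2 without wild-type library 5 or 9 or DJ1_KO_OVA_267. Of the 18 type 2 receptor and signaling genes that averaged at least 0.2 FPKM in the wild-type libraries alone, 8 were higher. Il17rb, the receptor subunit for interleukin-25, was at 0.492, 0.306 and 0.439 FPKM in WT_OVA and at 2.3, 1.66 and 2.25 FPKM in the knockout, above the 0.315 to 0.467 FPKM of the saline libraries (1.49 ± 0.19, limma adjusted p = 0.0033). The 3 knockout values were all above the wild-type values. Il1rl1, the receptor for interleukin-33, rose from 2.09, 1.41 and 2.78 FPKM to 4.39, 7.01 and 12.1, and Il13ra2, the decoy receptor for interleukin-13, rose from 0.183, 0.0765 and 0.29 to 0.637, 1.73 and 1.09. The kinase genes Jak1 and Jak3 rose by 0.85 and 0.80, the transducer Stat5a by 0.96, Il9r by 1.14, and the feedback inhibitors Cish and Socs1 by 1.43 and 1.01. Among 5 type 2 cytokines only Il13 passed, while Il4 (0.70) and Il5 (0.37) overlapped between groups. The receptor subunit Il4ra (0.43) and the transcription factor Stat6 (0.23) did not pass either.

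The count of higher type 2 receptor and signaling genes was 1 without wild-type library 6, 2 without DJ1_KO_OVA_267, 3 without wild-type library 5 or 9, and 9 without DJ1_KO_OVA_263, and it was 4 when the trend with gene length was removed. Markers of group 2 innate lymphoid cells share several of these genes, and 7 of 14 were higher, or 3 without wild-type library 6 or DJ1_KO_OVA_267. Most of their summed level in DJ1_KO_OVA_266 and DJ1_KO_OVA_267 came from Arg1, the arginase gene, which macrophages also express (30.6, 3.33 and 17.7 FPKM in WT_OVA and 55.3, 496 and 355 FPKM in the knockout). Without Arg1 the sums were 134, 99.2 and 126 FPKM in WT_OVA and 128, 155 and 195 FPKM in the knockout, and DJ1_KO_OVA_263 lay within the wild-type range. Whether more such cells were present was not tested. In bulk RNA, more or fewer cells of a type cannot be told apart from more or less RNA per cell, which holds for every marker below.

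Genes that airway epithelium and stroma express in response to interleukin-13 had a median difference of 1.70 over 23 genes, of which 14 were higher and 0 lower. Of the 22 that averaged at least 0.2 FPKM in the wild-type libraries alone, 13 were higher. Slc26a4, the epithelial anion exchanger pendrin, held 62.9, 60.1 and 53.5 FPKM in the knockout against 7.94, 1.32 and 5.48 FPKM in WT_OVA. Slc5a1, a sodium-glucose cotransporter, held 7.65, 7.29 and 5.73 against 1.93, 1.21 and 1.45 FPKM (1.87 ± 0.23, limma adjusted p = 0.0023). Pigr, which carries IgA across epithelium, held 79.5, 58.3 and 90.5 against 34, 29.5 and 23.3 FPKM. The eosinophil chemokine Ccl11 held 53.6, 61.9 and 59.3 against 18.7, 10.4 and 16.4 FPKM (1.95 ± 0.24, limma adjusted p = 0.0028). Its knockout values were close together, unlike those of the related chemokine Ccl24, which held 108, 1073 and 759 FPKM in the knockout. Wild-type library 6 was the lowest of the 3 for Slc26a4, Slc5a1, Ccl11 and Clca1, and its Slc26a4 level lay within the 1.02 to 2.42 FPKM of saline. The summed level of the list was 7455, 972 and 5282 FPKM in WT_OVA and 161 to 348 FPKM in saline. In the knockout it was 8982, 15510 and 9906 FPKM. Clca1, a secreted goblet cell protein, measured 543, 56.4 and 487 FPKM in WT_OVA and 1772, 901 and 1472 FPKM in the knockout and did not pass (2.43, limma adjusted p = 0.076). The mucin Muc5ac rose by 2.99, the glycosyltransferase gene Galnt12 by 1.24 and Retnlb, a resistin-like goblet cell product, by 2.87. Retnlb averaged below 0.2 FPKM over the wild-type libraries and was tested only because of its knockout values. The goblet cell regulators Spdef (0.52) and Foxa3 (0.56) did not pass. Without single libraries, 7 (without DJ1_KO_OVA_267) to 14 genes were higher. Without the pair of DJ1_KO_OVA_263 and wild-type library 6, the count was 9 and the median 1.16. The STAT6 element, TTC and GAA separated by 4 bases, searched on both strands from 250 bases before to 50 after the gene start, was found in 2 of 13 promoters of the list (15.4%) and in 8.01% of all.

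Of 35 chemokine ligands, 5 were higher and 1 lower. Cxcl12, a homing signal made by stroma and endothelium, rose from 6.56, 6.5 and 7.25 FPKM to 15.3, 16.1 and 17.7 (1.21 ± 0.17, limma adjusted p = 0.0046), and Cxcl1 and Cxcl3, which attract neutrophils, rose by 1.02 and 1.39. Ccl27a fell by 1.28. The count of higher ligands was 2 without wild-type library 6 or 9 or DJ1_KO_OVA_267, and 9 without DJ1_KO_OVA_263. Among 22 receptors, 3 rose, among them Ccr4 (1.54) and Ccr8 (1.69), and 0 rose without DJ1_KO_OVA_267. Ccr8, found on T helper 2 and regulatory T cells, went from 9.36, 5.35 and 10.8 FPKM to 17.6, 29 and 40.2. Eosinophil markers did not follow: 0 of 8 passed, and Siglecf measured 11.2, 15.5 and 13.3 FPKM in WT_OVA and 6.07, 6.47 and 16.4 FPKM in the knockout. Among the alarmins, Il33 rose by 1.29 and Il18, an inflammasome-activated cytokine, fell from 47.6, 39.2 and 52.7 FPKM to 6.88, 10.8 and 8.64 (-2.35 ± 0.30, limma adjusted p = 0.0033), while Tslp (-0.29) overlapped.

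Macrophage genes split by program. Genes of cell fusion and of osteoclast-like macrophages rose in 9 of 18 and fell in 2 of 18, with a median of 0.82. Ocstamp, which is required for the fusion of macrophages into multinucleate cells, held 1.25, 0.251 and 0.695 FPKM in WT_OVA and 3.58, 26.1 and 24.3 FPKM in the knockout (3.58 ± 0.61, limma adjusted p = 0.01). Its partner Dcstamp held 1.54, 0.279 and 1.28 against 1.56, 7.93 and 17.4 FPKM (2.26). The protease gene Ctsk held 147, 58.1 and 154 against 211, 682 and 830 FPKM, Spp1 (osteopontin) 37.6, 34.9 and 41.9 against 67.3, 233 and 270, and Trem2 rose by 1.11. In each of these 5 genes DJ1_KO_OVA_263 was the lowest of the 3 knockout libraries, and for Dcstamp it lay beside wild-type library 5 (1.56 and 1.54 FPKM). Acp5 (0.47) and Atp6v0d2 (0.40), classical osteoclast genes, overlapped between the groups. Without single libraries the higher count ran from 0 (without DJ1_KO_OVA_267) to 10 (without DJ1_KO_OVA_263).

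Of the arginine and polyamine genes, 5 of 17 rose and 0 fell. Slc7a2, the cationic amino acid transporter that supplies arginase, was the most even of them, with 10.7, 5.42 and 8.33 FPKM in WT_OVA and 33.2, 33.9 and 77.7 FPKM in the knockout (2.43 ± 0.34, limma adjusted p = 0.0049). The proline synthesis genes Pycr1 and Aldh18a1 rose by 0.86 and 1.00 and the transporter Slc7a1 by 1.09. The higher count was 1 without wild-type library 6 or 9 or DJ1_KO_OVA_267, and 2 without wild-type library 5. Of 8 chitinase-like and resistin-like genes, Chil4 and Retnlb rose and Retnlg and Retn fell, whereas Chil3 (10780, 2101 and 11720 against 10250, 23240 and 31290 FPKM) overlapped. Chil3 and Chil4 are near-identical, so reads may have been exchanged between them. Mrc1, the mannose receptor, was 1 of 2 raised markers of the next group and rose from 24.1, 21 and 26.1 FPKM to 63.3, 68.5 and 141 (1.82).

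Markers of resident alveolar macrophages did not move as 1 group. Of 18, 2 rose and 5 fell, with a median of -0.11. The ribonuclease gene Ear1 fell from 177, 228 and 263.4 FPKM to 9.95, 14.3 and 18.4 (-3.94 ± 0.34, limma adjusted p = 0.00036), and the scavenger receptor gene Marco from 29.2, 24 and 21.3 FPKM to 1.37, 5.57 and 3.97 (-2.76). The lipid genes Fabp1 and Cidec fell by 4.13 and 1.70. With Il18, the fifth of the list, these were called in each of the 6 fits without 1 library. The Ear genes are near-identical copies, and the level of Ear1 may hold reads of its relatives.

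Monocyte genes were lower where they passed, apart from the matrix genes Fn1 and Vcan, which are shared with fibroblasts. The apolipoprotein gene Apoe fell by 1.30. Plac8 fell from 288, 228 and 596 FPKM to 28.4, 161 and 37.9, and Ly6c2 fell by 0.93. Of 11 nonclassical monocyte markers, 4 fell and 0 rose. Cd300e, an activating receptor of these cells, held 21.3, 19.3 and 47.8 FPKM in WT_OVA and 0.404, 8.5 and 3.41 FPKM in the knockout, and Adgre4 and Eno3 fell by 2.65 and 2.49. DJ1_KO_OVA_266 was the highest knockout library for all 3. In the monocyte list 4 were lower without DJ1_KO_OVA_266 and 0 without any other single library. Among the nonclassical markers the lower count ran from 0 (without wild-type library 9 or DJ1_KO_OVA_267) to 5 (without DJ1_KO_OVA_266).

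Of 30 collagens tested, 13 were higher and 0 lower, with a median of 0.69. Of the 28 that averaged at least 0.2 FPKM in the wild-type libraries alone, 12 were higher. The fibrillar collagens, which form the tensile fibres of scar and interstitium, rose in 6 of 7, and the microfibrillar collagen VI chains in 4 of 5, and 0 of 5 collagen IV chains of the basement membrane passed, with differences from 0.12 to 0.72. A difference between chain types was not tested. Col3a1 held 41.1, 38.4 and 40.8 FPKM in WT_OVA and 158, 112 and 300 FPKM in the knockout (2.11 ± 0.34, limma adjusted p = 0.0087). Col6a5 held 0.52, 0.0603 and 0.135 against 4.88, 3.26 and 11.5 FPKM (3.13 ± 0.38, limma adjusted p = 0.0024). It averaged below 0.2 FPKM over the wild-type libraries and was tested only because of its knockout values. Col1a1, Col1a2, Col5a1, Col5a2 and Col5a3 rose by 1.65, 1.33, 1.47, 1.72 and 0.84, and Col6a1, Col6a2 and Col6a3 by 1.49, 1.75 and 1.5. The seventh fibrillar chain, Col11a2 (0.51), and the fifth collagen VI chain, Col6a6 (0.77), did not pass. Col4a1 held 18.6, 20.4 and 18.6 against 31.1, 27.3 and 38 FPKM (0.72) and missed the threshold, although its groups did not overlap.

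Of 23 enzymes that crosslink and process collagen, 4 were higher and 1 lower. Lox rose from 3.16, 5.12 and 4.54 FPKM to 16, 8.09 and 22.9, Loxl4 and Loxl2 by 1.12 and 1.13, and the collagen chaperone gene Serpinh1 by 0.75, whereas Pcolce2 fell by 0.94. Among 17 metalloproteinases and inhibitors, 5 rose and 2 fell. Mmp19 held 15.6, 6.67 and 13.7 FPKM in WT_OVA and 33.5, 72.2 and 106 FPKM in the knockout (2.45), and the macrophage elastase gene Mmp12 held 20.1, 1.92 and 25.1 against 34.1, 144 and 266.5 FPKM. Mmp14 rose by 1.18. The 2 that fell, Mmp8 (-1.19) and Mmp9 (-1.09), are stored in neutrophil granules. Between 0 and 7 crosslinking genes were higher without single libraries (0 without wild-type library 9 or DJ1_KO_OVA_267, 7 without DJ1_KO_OVA_266), and 1 metalloproteinase gene was higher when any of the wild-type libraries or DJ1_KO_OVA_267 was left out.

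Of 32 matricellular proteins and ligands of the TGF-beta and activin family, 8 were higher and 0 lower. Of the 31 that averaged at least 0.2 FPKM in the wild-type libraries alone, 7 were higher. Inhba, the activin A subunit, held 1.25, 0.328 and 1.35 FPKM in WT_OVA, 5.98, 10.3 and 29.6 FPKM in the knockout and 0.256 to 0.295 FPKM in saline (3.21 ± 0.49, limma adjusted p = 0.0072). Fn1 (fibronectin) held 60.8, 29.4 and 42.9 against 152, 207 and 381 FPKM (2.42), and Postn (periostin) 1.33, 0.286 and 0.97 against 9.74, 8.23 and 22.1 FPKM (3.30). Fbn1, Vcan and Tnc rose by 1.84, 1.45 and 0.79. Without single libraries 3 (without DJ1_KO_OVA_267) to 13 (without DJ1_KO_OVA_266) of the list were higher. Tgfb1 itself overlapped, at 75.9, 45.5 and 60.4 FPKM in WT_OVA and 31.9, 89.3 and 68.9 FPKM in the knockout. DJ1_KO_OVA_267 was the highest of the 6 for Col3a1, Col6a5, Fn1, Postn and Inhba, and the count of higher collagens was 6 without it, 6 without wild-type library 9, 18 without DJ1_KO_OVA_266 and 3 without the pair of DJ1_KO_OVA_263 and wild-type library 6.

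Of 16 fibroblast markers, 4 were higher, all of them collagens, and 1 was lower, and 1 was higher without wild-type library 6 or 9 and 2 without wild-type library 5 or DJ1_KO_OVA_267. Inmt, an amine methyltransferase of alveolar fibroblasts, fell from 434, 736 and 484 FPKM to 143, 127 and 94.7 (-2.16 ± 0.29, limma adjusted p = 0.004), and Dcn (decorin) held 104, 137 and 108 against 101, 43.6 and 76.5 FPKM and did not pass. The summed level of the list was 1066 to 1436 FPKM in WT_OVA and 879 to 1403 FPKM in the knockout. The smooth muscle actin gene Acta2 (0.10) overlapped.

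Genes of DNA replication and of mitosis rose together. Of 32 replication genes, 16 were higher and 0 lower (median 0.89), and of 39 mitotic genes 26 were higher and 0 lower (median 1.16). Of the 34 mitotic genes that averaged at least 0.2 FPKM in the wild-type libraries alone, 23 were higher. All 6 subunits of the replicative helicase, Mcm2 to Mcm7, were higher, with differences between 1.07 and 1.63. Mcm3 held 7.96, 4.46 and 5.99 FPKM in WT_OVA and 26.1, 16.2 and 17.7 FPKM in the knockout (1.63 ± 0.26, limma adjusted p = 0.008). The DNA ligase gene Lig1 held 3.93, 2.89 and 3.12 against 13.2, 8.29 and 8.31 FPKM (1.43). Uhrf1, which takes part in copying DNA methylation onto new strands, held 2.5, 1.38 and 2.03 against 24.5, 6.25 and 7.08 FPKM (2.16). Pcna (0.25) overlapped between groups.

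In the list of mitotic genes and cyclins, Foxm1, the transcription factor of the G2 phase, held 0.76, 0.592 and 0.68 FPKM in WT_OVA and 6.9, 2.13 and 2.68 FPKM in the knockout (1.75 ± 0.33, limma adjusted p = 0.014). Mki67 held 1.91, 1.11 and 1.85 against 20.1, 3.4 and 10.9 FPKM (2.22), and Top2a 2.06, 1.21 and 2.12 against 29.8, 4.67 and 10.1 FPKM (2.39). The kinase genes Plk1 and Aurkb rose by 1.79 and 1.75, and the cyclin genes Ccnb1 and Ccne1 by 1.36 and 1.19. Cdk1 (0.78) did not pass. Histone genes, most of which make transcripts without a poly(A) tail, gave 2 higher and 1 lower of 47 replication-dependent genes.

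DJ1_KO_OVA_263 was the highest knockout library for Mcm3, Lig1, Uhrf1, Foxm1, Mki67, Top2a and Plk1, and it also held the most T cell transcripts. The summed level of 20 T cell markers was 400 to 619 FPKM in WT_OVA, 2096 FPKM in DJ1_KO_OVA_263, and 615 and 589 FPKM in DJ1_KO_OVA_266 and DJ1_KO_OVA_267. The part of T cells in the rise of the cell cycle genes was not tested. Without DJ1_KO_OVA_263, 11 of 32 replication genes and 15 of 39 mitotic genes were higher. The counts fell furthest without wild-type library 6 (2 and 1), were 3 and 5 without wild-type library 9, 7 and 11 without wild-type library 5 and 4 and 3 without DJ1_KO_OVA_267, and reached 21 and 31 without DJ1_KO_OVA_266. Without the pair of DJ1_KO_OVA_263 and wild-type library 6 they were 3 and 1, with medians of 0.58 and 0.63.

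The promoters of the mitotic genes were searched for the cell cycle genes homology region, the element through which the DREAM complex and FOXM1 act, written TTTGAA and read on both strands from 250 bases before to 50 bases after the gene start. Promoter sequences are RefSeq's for GRCm38.p6. TTTGAA was found in 20 of 31 mitotic genes with a promoter in that table (64.5%) and in 20.2% of all 27025 genes with one. Among tested genes with the motif, 133 of 1746 were higher and 134 lower, and in the mitotic list 15 of 20 genes with it and 5 of 11 without it were higher. Windows of 4 called genes with the motif near the start are shown with TTTGAA in capitals, at chr7:122159445-122159484 (plus strand), chr4:124936879-124936924 (minus strand), chr2:118598231-118598260 (plus strand) and chr7:80294426-80294471 (plus strand).
Plk1: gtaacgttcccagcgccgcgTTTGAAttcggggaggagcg
Cdca8: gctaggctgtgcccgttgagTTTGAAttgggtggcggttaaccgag
Bub1b: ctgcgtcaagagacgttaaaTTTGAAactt
Prc1: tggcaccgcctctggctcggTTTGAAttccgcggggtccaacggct
Cdca8, a subunit of the complex that corrects chromosome attachment, held 1.64, 0.733 and 1.32 FPKM in WT_OVA and 7.04, 3.12 and 3.27 FPKM in the knockout (1.47). The checkpoint kinase gene Bub1b and the spindle midzone gene Prc1 rose by 1.39 and 1.40. For replication genes the E2F element TTTCCCGC was found in 6 of 26 promoters (23.1%) and in 1.24% of all promoters, and 3 of the 6 genes with it and 11 of 20 without it were higher.

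Chaperones and folding enzymes of the endoplasmic reticulum rose in 15 of 35 genes and fell in 1, with a median of 0.71. Hspa5, the chaperone BiP, held 153, 134 and 139 FPKM in WT_OVA, 348, 306 and 573 FPKM in the knockout and 130 to 163 FPKM in saline (1.47 ± 0.27, limma adjusted p = 0.013). The groups did not overlap. Dnajc3, a cochaperone of BiP, held 21.4, 20.6 and 20.3 against 50.6, 39.8 and 61 FPKM (1.24 ± 0.20, limma adjusted p = 0.008) and was the only one of the named members here that passed in all 6 fits without 1 library. Hyou1, an exchange factor for BiP, held 17.5, 11.2 and 14.2 against 31.1, 46.9 and 50.4 FPKM, and the disulfide isomerase gene Pdia4 52.5, 35.6 and 55.4 against 87.8, 150 and 174 FPKM. Edem1 and Sel1l, which send misfolded proteins to degradation, rose by 1.52 and 1.23. The count of higher genes was 1 without DJ1_KO_OVA_267, 2 without wild-type library 6, 4 without wild-type library 9, 5 without wild-type library 5, and 15 and 17 without DJ1_KO_OVA_266 and DJ1_KO_OVA_263.

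Promoters of these genes were searched for the endoplasmic reticulum stress element, through which ATF6 and XBP1 act. The element was searched as CCAAT and CCACG separated by 9 bases, on both strands, and was found in 8 of 28 promoters of the list (28.6%) and in those of 37 of 27025 genes (0.137%). Among the 18 tested genes with the element, in or out of the list, 7 were higher and 0 lower, with a median difference of 0.69. Of the list, 6 of 8 genes with the element were higher (median 1.14), and 6 of 20 without it were higher and 1 lower (median 0.47). The 7 higher genes with the element are shown because they are the members of that group that rose, with both parts of the element in capitals. The windows are at chr2:34772005-34772063 (plus), chr10:86705618-86705676 (minus), chr12:17266471-17266529 (plus), chr11:50325780-50325838 (minus), chr15:88819500-88819558 (plus, with the element on the opposite strand), chr14:118937807-118937865 (plus) and chr19:6046512-6046570 (plus).
Hspa5: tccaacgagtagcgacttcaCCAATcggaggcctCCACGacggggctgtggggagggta
Hsp90b1: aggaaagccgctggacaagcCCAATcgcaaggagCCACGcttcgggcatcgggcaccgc
Pdia6: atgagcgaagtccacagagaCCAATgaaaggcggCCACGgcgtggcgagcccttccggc
Canx: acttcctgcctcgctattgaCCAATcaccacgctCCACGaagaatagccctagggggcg
Creld2: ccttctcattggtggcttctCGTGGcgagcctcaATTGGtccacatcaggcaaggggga
Dnajc3: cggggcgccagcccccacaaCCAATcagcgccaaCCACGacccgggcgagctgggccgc
Syvn1: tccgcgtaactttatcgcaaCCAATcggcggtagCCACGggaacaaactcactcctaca
Hsp90b1, the chaperone GRP94, held 76.5, 66.5 and 82.8 FPKM in WT_OVA and 131, 137 and 215 FPKM in the knockout (1.06), and Creld2 held 40.3, 27.7 and 35.8 against 56.1, 134 and 115 FPKM (1.47). Pdia6, the lectin chaperone gene Canx and the ubiquitin ligase gene Syvn1 rose by 0.93, 0.73 and 1.08.

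Regulators and targets of the unfolded protein response were higher in 6 of 22 and lower in 1, and 0 were higher when any 1 wild-type library was left out, 1 without DJ1_KO_OVA_263 or DJ1_KO_OVA_267, and 7 without DJ1_KO_OVA_266. Creb3l1, Creb3l2 and Ern2, a sensor of mucous cells, rose by 0.90, 1.04 and 1.08, and the serine synthesis gene Psat1 by 0.82. Xbp1 held 94.6, 77.5 and 85 FPKM in WT_OVA and 65.4, 116 and 78.5 FPKM in the knockout and overlapped. Ddit3 (CHOP), the proapoptotic factor of the pathway, held 16.2, 23.3 and 22.1 against 13.5, 11.5 and 10.1 FPKM and did not pass (-0.77), and Atf3 fell from 496, 568 and 481 FPKM to 248, 256 and 284 (-0.97).

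Cytosolic heat shock genes rose in 5 of 21 (23.8%, beside 5.93% over all genes) and fell in 1. Hsph1, an exchange factor for HSP70, held 4.21, 5.5 and 4.64 FPKM in WT_OVA, 22.9, 11.6 and 22.7 FPKM in the knockout and 2.76 to 2.84 FPKM in saline (1.83 ± 0.26, limma adjusted p = 0.0045). Hspd1, Hspa4, Stip1 and Hspa1b rose by 0.99, 0.86, 0.72 and 1.30, and Hspb8 fell by 0.86. The higher count was 9 without DJ1_KO_OVA_266, 4 without DJ1_KO_OVA_263 and 1 without any other single library.

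T cell markers were higher in 8 of 20 genes and lower in 0, with a median of 1.10, but the rise was uneven over the knockout libraries. Cd4 held 8.33, 4.74 and 6.48 FPKM in WT_OVA and 53.2, 11.8 and 21.9 FPKM in the knockout (1.84), and Cd6 held 4.17, 2.17 and 3.04 against 13.2, 6.52 and 7.21 FPKM (1.36). Cd8a held 5.82, 5.51 and 5.17 against 83, 6.26 and 6.28 FPKM and did not pass (1.39, limma adjusted p = 0.22). The T cell receptor gene Trac rose by 1.30. Without DJ1_KO_OVA_263, 3 of 20 were higher, and without wild-type library 6, wild-type library 9 or DJ1_KO_OVA_267, 0 were.

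Regulatory T cell and costimulation genes rose in 8 of 27 and fell in 0, with a median of 0.81. Their summed level was 221 FPKM in DJ1_KO_OVA_263, within the 175 to 261 FPKM of WT_OVA, and 390 and 436 FPKM in DJ1_KO_OVA_266 and DJ1_KO_OVA_267. Foxp3, the defining transcription factor of regulatory T cells, held 1.89, 0.62 and 1.34 FPKM in WT_OVA, 1.97, 3.97 and 6.57 FPKM in the knockout and 0.46 to 0.81 FPKM in saline (1.33 ± 0.38, limma adjusted p = 0.044). Il2ra, the high-affinity interleukin-2 receptor, held 2.22, 1.33 and 2.15 against 5.12, 3.86 and 6.29 FPKM (1.22), and Tigit 19.3, 10.9 and 14.4 against 30.4, 28.1 and 34 FPKM (1.06). The inhibitory receptor genes Ctla4 and Pdcd1 rose by 1.39 and 1.15 and the PD-1 ligand gene Pdcd1lg2 by 2.22. Icos (0.95) missed the threshold. Without single libraries the count ran from 0 (without wild-type library 6 or DJ1_KO_OVA_267) to 8.

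Of 20 cytotoxic and type 1 genes, 0 rose and 2 fell, the cytokine genes Il27 (-1.47) and Il12a (-0.81). That share of 10% was near the 8.24% over all genes, and 3 were lower without DJ1_KO_OVA_266 but 0 without any other single library and 0 under equal sums. Gzma held 348, 246 and 507 FPKM in WT_OVA and 202, 154 and 114 FPKM in the knockout (-1.20, limma adjusted p = 0.056), and of 12 natural killer cell markers only Klra9 passed (-1.41). Interferon-stimulated genes gave 1 higher and 1 lower of 40, below the share over all genes in both directions. Class II presentation genes gave 0 higher and 1 lower of 12 (8.33%, near the 8.24% over all genes).

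B cell markers fell in 6 of 14 and rose in 0 (median -0.70). Vpreb3 fell from 23.8, 27.1 and 21.7 FPKM to 6.09, 13 and 6.28 (-1.54), and Cd79b and Ms4a1 fell by 1.76 and 1.48. The summed level of the list was 371 to 485 FPKM in WT_OVA and 133, 319 and 154 FPKM in DJ1_KO_OVA_263, DJ1_KO_OVA_266 and DJ1_KO_OVA_267. Antibody genes did not follow this direction as 1 group. Ighg1, the IgG1 heavy chain that interleukin-4 favours in mice, rose from 3.8, 0.354 and 0.275 FPKM to 10.8, 21.4 and 31.4 (3.82 ± 0.59, limma adjusted p = 0.0076), and Irf4, a transcription factor of plasma cells, T cells and dendritic cells, from 4.49, 2.79 and 3.86 to 10.5, 14.9 and 32.9 (2.10). Ighd fell by 1.06, the light chain genes Iglc2 and Iglc3 by 2.04 and 2.49, and Sdc1 by 0.95. Of that list 4 genes were lower, and 0 without wild-type library 9 or DJ1_KO_OVA_267. The count of lower B cell markers was 9 without DJ1_KO_OVA_266 and at most 2 without any other single library.

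Neutrophil transcripts fell in 14 of 21 genes and rose in 0 (median -1.45), to a summed level of 1591, 4815 and 1734 FPKM in DJ1_KO_OVA_263, DJ1_KO_OVA_266 and DJ1_KO_OVA_267 against 13690 to 20120 FPKM in WT_OVA. The stefin A cluster on chromosome 16, a mouse family of cysteine protease inhibitors expressed in neutrophils, fell in 6 of 7 members. Stfa1 held 11.6, 11.3 and 14.1 FPKM in WT_OVA and 0.45, 1.01 and 0.345 FPKM in the knockout (-3.58 ± 0.29, limma adjusted p = 0.00026). Stfa2l1 held 173, 146 and 225 against 11.2, 24.5 and 9.95 FPKM (-3.62), and Cstdc4 30.5, 24.7 and 34.7 against 1.4, 5.34 and 1.08 FPKM (-3.54). Stfa2, Stfa3 and Cstdc5 were lower as well (-2.85, -2.59 and -2.72). The members are near-identical, and single values may hold reads of relatives, although the direction was shared by the 6. Each of the 6 also passed in every fit without 1 library.

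Ly6g, the surface marker of mouse neutrophils, fell from 11.1, 8.85 and 14.5 FPKM to 1.73, 2.47 and 1.22 (-2.39 ± 0.28, limma adjusted p = 0.0018), and the calprotectin gene S100a8 from 4763, 4282 and 6267 FPKM to 358, 1325 and 372 (-3.17). The activating receptor gene Trem1 fell by 1.45. Under equal sums 10 of the 21 markers were lower, and without single libraries 7 (without DJ1_KO_OVA_267) to 16 (without DJ1_KO_OVA_266) were. Of 28 genes of interleukin-1, TNF and NF-kB signaling, 3 rose (Il1r1, Tnfaip3 and Nfkb1, by 0.82, 0.96 and 0.94) and the decoy receptor gene Il1r2, which neutrophils express, fell by 0.93, while without wild-type library 5 or 9 or DJ1_KO_OVA_267 0 rose. Il1b held 2094, 1527 and 2237 FPKM in WT_OVA and 442, 1247 and 876 FPKM in the knockout and did not pass (-1.30). Of 20 toll-like receptor genes, Tlr13, Tlr2 and Ly96 fell (-1.30, -0.83 and -1.11), 15% beside 8.24% over all genes. Under equal sums and in every fit without 1 library other than DJ1_KO_OVA_266 (4 lower), 0 of them were lower. Of 24 complement genes, 2 were higher and 2 lower (8.33% each, beside 5.93% and 8.24% over all genes), with a median of -0.01. C3 rose from 297, 202 and 241 FPKM to 666, 657 and 988 (1.63), while Vsig4 and C5ar1 fell by 1.26 and 1.02. The lower count was 3 without DJ1_KO_OVA_266 and 0 without any other single library.

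Genes of cytosolic ribosomal proteins were lower in 50 of 87, with 0 higher and a median of -1.28. Both subunits took part, with 30 of 52 large-subunit genes and 20 of 35 small-subunit genes lower. Rps14 held 1373, 1106 and 1641 FPKM in WT_OVA, 253, 646 and 265 FPKM in the knockout and 517 to 1183 FPKM in saline (-1.95 ± 0.44, limma adjusted p = 0.024). Rps27 held 1717, 1421 and 2343 against 134, 873 and 118 FPKM (-2.90). For Rps14 the saline libraries overlapped with both groups, and for both genes DJ1_KO_OVA_266 was nearest to the wild type. The count of lower genes was 81 without DJ1_KO_OVA_266 and at most 1 without any other single library, and 35 under equal sums, where the median stayed below 0 (-0.67).

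The opposite was found for factors that act on the ribosome. Of 23 genes of translation initiation, elongation and ribosome assembly, 6 were higher and 0 lower. Eif4g1, the scaffold of cap-dependent initiation, held 25.5, 23.6 and 20.7 FPKM in WT_OVA and 50.3, 40.5 and 57.2 FPKM in the knockout (1.06), and Rrp12, Utp20, Eif3c, Nolc1 and Eif3a rose by 0.86, 1.05, 0.75, 0.74 and 0.97. The higher count was 9 without DJ1_KO_OVA_266 and at most 2 without any other single library. The proteasome gave 1 higher gene, Psmd2, of 38.

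Genes of the mitochondrial genome were lower in 9 of 13 and higher in 0 (median -1.45). In all 13 the knockout values lay below all WT_OVA values, beside 18.8% over all genes. Their summed level in saline, 17430 to 31610 FPKM, overlapped with the 11820 to 20150 FPKM of the knockout. mt-Nd3 held 91.3, 85.4 and 91.3 FPKM in WT_OVA, 3.34, 10.3 and 4.35 FPKM in the knockout and 48.1 to 73.1 FPKM in saline (-3.94 ± 0.34, limma adjusted p = 0.00036). mt-Atp8, mt-Co3, mt-Co2 and mt-Atp6 fell by 2.35, 1.97, 1.45 and 1.64. Of 18 mitochondrial tRNA genes, 3 fell (mt-Tg, mt-Tr and mt-Tn) and mt-Tt rose by 1.82, with a median of -0.51. Without single libraries 2 (without DJ1_KO_OVA_267) to 11 (without DJ1_KO_OVA_266) of the 13 genes were lower. Nuclear genes of oxidative phosphorylation gave 15 lower and 1 higher of 86 (median -0.77), among them Cox6a2 (27.7, 28.4 and 22.8 against 6.11, 11.7 and 4.99 FPKM), Ndufa4, Ndufa6 and Ndufa7. Under equal sums that list gave 9 higher and 6 lower, so its direction depended on the scaling, and 53 were lower without DJ1_KO_OVA_266 but 1 without any other single library. Mitochondrial ribosomal proteins gave 0 higher and 7 lower of 76 (9.21%, near the 8.24% over all genes), and 37 lower without DJ1_KO_OVA_266 but 0 without any other single library. Under equal sums they gave 7 higher and 3 lower with a median of 0.14.

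These groups are short genes, and length went with the difference over the whole table. In the 10 length classes of about 1772 genes each, the median difference was -0.46 in the second shortest class, where 349 genes were lower and 32 higher, and 0.43 in the longest class, where 10 were lower and 185 higher. After a smooth trend with length was removed, the class medians were between 0 and 0.05, and 923 genes were higher and 979 lower. In that fit 35 cytosolic ribosomal genes and 7 mitochondrial genome genes were lower, 22 mitotic, 16 replication, 12 collagen and 15 endoplasmic reticulum genes were higher, and 13 neutrophil markers were lower. RNA integrity and fragment size, which would bear on length, are not stated in the labels, and their part was not tested.

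**Figure D4:**
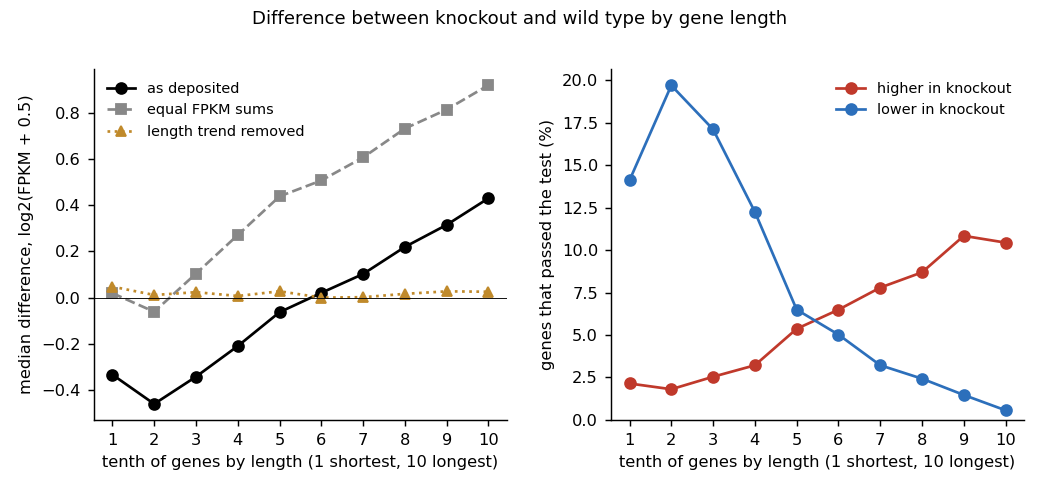
Median difference between DJ1_KO_OVA and WT_OVA (left, log2 of FPKM + 0.5) and share of genes that passed the test (right, %) in 10 classes of genes by length, from shortest to longest. As deposited, the median runs from below 0 in the shorter classes to 0.43 in the longest, and the share of lower genes falls from 19.7% in the second class to 0.564% in the longest.

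NRF2 targets and antioxidant enzymes gave 8 lower and 2 higher of 35 (median -0.46). Sod1, the cytosolic superoxide dismutase, held 106, 137 and 129 FPKM in WT_OVA and 35.8, 58.6 and 31.9 FPKM in the knockout (-1.59 ± 0.29, limma adjusted p = 0.013). Gclc, the rate-limiting enzyme of glutathione synthesis, moved the other way, from 22, 26.3 and 15.4 FPKM to 71.1, 40.6 and 43.1 (1.25 ± 0.28, limma adjusted p = 0.025). Prdx5, Prdx6, Gsr and Gss fell by 1.57, 1.04, 0.98 and 0.86, and the classical NRF2 target Nqo1 fell from 2.31, 3.51 and 4.06 FPKM to 1.08, 1.39 and 1.84 (-0.96). Hmox1 (-0.36), Cat (-0.68), Txn1 (-0.53) and the regulator Nfe2l2 itself (-0.33) did not pass. Under equal sums the list gave 8 higher and 3 lower with a median of 0.14, so it had no direction that held under both scalings, and without single libraries other than DJ1_KO_OVA_266 at most 1 gene was lower.

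Of 23 genes of Parkinson disease and mitochondrial quality, Park7 included, 3 fell and 0 rose, and Park7 itself was 1 of the 3. With Park7 set aside, the share of lower genes was near the 8.24% over all genes. Under equal sums the list gave 5 higher and 1 lower, so it had no direction that held under both scalings. In the list 1 gene fell without DJ1_KO_OVA_267, 2 without any 1 wild-type library and 5 without DJ1_KO_OVA_266. Pink1, the kinase that marks damaged mitochondria, held 53, 54.9 and 53.8 FPKM in WT_OVA, 26.4, 27.1 and 25.9 FPKM in the knockout and 48.7 to 76.8 FPKM in saline (-1.01 ± 0.20, limma adjusted p = 0.016). Under equal sums the difference was -0.40 and did not pass (limma adjusted p = 0.27). Pink1 lies on chromosome 4, 12.6 Mb from Park7 on the side of lower coordinates. Of the 167 genes lying 10 to 20 Mb from Park7 on that side, 7 were higher and 34 lower (20.4%). For Pink1 too, the loss of DJ-1 and any other difference in chromosome 4 sequence cannot be told apart. Bnip3, another mitophagy gene, fell by 1.29. Lrrk2 (0.25) overlapped between the groups.

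Glycolysis genes rose in 4 of 23 and fell in 1, with Pfkp and Hk2 higher by 1.30 and 1.39, the gluconeogenic gene Fbp1 among the 4, Slc16a1 higher by 1.14 and the lactate exporter gene Slc16a3 lower by 1.52. The higher count was 0 without wild-type library 5 or 9 or DJ1_KO_OVA_267, and 6 without DJ1_KO_OVA_263. Of 16 genes responsive to hypoxia, 3 rose and 1 fell, and 1 rose when DJ1_KO_OVA_267 or any 1 wild-type library was left out. Egln3, a prolyl hydroxylase that is itself induced by hypoxia-inducible factors, held 2.41, 1.49 and 1.91 FPKM in WT_OVA and 10.4, 8.13 and 8.34 FPKM in the knockout (1.97 ± 0.22, limma adjusted p = 0.0013) and belongs to the stable set. Hif1a and Ero1l rose by 0.78 and 0.91. The glucocorticoid target Fkbp5 rose from 4.53, 4.63 and 3.42 FPKM to 17.7, 10.9 and 10.1 (1.48), and in that list of 17 genes Ddit4 rose by 0.89 and Angptl4 fell by 0.97. Cholesterol synthesis genes rose in 5 of 23 (among them Sqle, Cyp51, Dhcr7 and Hsd17b7, by 0.77 to 0.88), and in 0 to 8 without single libraries, the 8 without DJ1_KO_OVA_266 and the 0 without wild-type library 5 or 9 or DJ1_KO_OVA_267. Of 38 lysosomal genes 6 rose and 2 fell (15.8% and 5.26%, beside 5.93% and 8.24% over all genes). Of that list 0 rose without DJ1_KO_OVA_267, and 1 when any 1 wild-type library was left out. Among 22 subunits of the vacuolar proton pump 4 rose (Atp6v0a2 by 1.18, Atp6v0a1 by 1.24 and Atp6v0a4 by 0.89 among them) and Atp6v1c2 fell by 1.39.

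Markers of alveolar, club and ciliated epithelium were lower where they passed, and most of these calls were lost without 1 library: of 14 type 2 alveolar markers, 0 were lower without wild-type library 5 or 6 or DJ1_KO_OVA_267 and 5 without DJ1_KO_OVA_266. Of the 14, 3 fell (Lyz1, Napsa and Lamp3, by 2.02, 1.28 and 1.14), and the most abundant one, Sftpc, held 35280, 38450 and 30220 FPKM in WT_OVA and 11270, 11650 and 5089 FPKM in the knockout and missed the threshold (-1.98, limma adjusted p = 0.055). Of 11 type 1 cell markers 3 fell, among them the water channel gene Aqp5 (74.4, 89.5 and 58.2 against 27.4, 34.5 and 14.2 FPKM). Scgb3a2, a secretoglobin of club cells, fell from 2047, 3955 and 1784 FPKM to 466, 515 and 376 (-2.44), and Cbr2 fell by 1.77. The ciliated cell gene Tppp3 fell by 2.24. Keratins fell in 5 of 19 and rose in 0. Krt23 held 28.8, 33.9 and 24 against 10.2, 7.58 and 5.83 FPKM (-1.83 ± 0.25, limma adjusted p = 0.0042), and Krt19 and Krt18 fell by 1.32 and 1.05.

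Other epithelial families followed. Of 23 cytochrome P450 genes 5 fell, among them Cyp4b1 and Cyp2b10 (-1.44 and -1.37), and the stromal gene Cyp1b1 rose by 1.23. Of 32 junction genes 5 fell (15.6%, beside 8.24% over all genes), among them Cldn3 (176, 232 and 106 against 61.2, 83.1 and 49.7 FPKM), and Cldn1 rose by 1.72. Under equal sums 0 junction and 0 cytochrome P450 genes were lower, and 1 of 19 keratins was. Without single libraries the lower counts reached at most 9 junction, 7 cytochrome P450 and 7 keratin genes (without DJ1_KO_OVA_266) and were 0, 0 and 1 without wild-type library 5 or 6. Summed levels moved with these counts: ciliated markers came to 470 to 735 FPKM in WT_OVA and 141 to 284 FPKM in the knockout, and type 1 markers to 580 to 701 and 193 to 448 FPKM. Their part in the falls of the other epithelial families was not tested.

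Endothelial markers separated the knockout libraries from each other. Their summed level was 185, 156 and 224 FPKM in WT_OVA, and 41.3, 229.2 and 72.6 FPKM in DJ1_KO_OVA_263, DJ1_KO_OVA_266 and DJ1_KO_OVA_267. Egfl7, secreted by endothelium, held 16.1, 13.6 and 20.1 FPKM in WT_OVA and 0.892, 15.1 and 2.02 FPKM in the knockout, and the tight junction gene Cldn5 64.9, 49.2 and 76.8 against 4.6, 85.4 and 16.9 FPKM. Gpihbp1, which anchors lipoprotein lipase in capillaries, held 4.02, 4.51 and 6.79 against 0.0114, 4.33 and 0.096 FPKM. Of 16 general endothelial markers only Emcn passed (-1.17), and 12 were lower without DJ1_KO_OVA_266. The summed levels of ribosomal, mitochondrial genome, B cell and neutrophil transcripts divided the knockout libraries in the same way, with DJ1_KO_OVA_266 nearest to WT_OVA. Whether the differences described above follow from these shares was not tested.

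**Figure D5:**
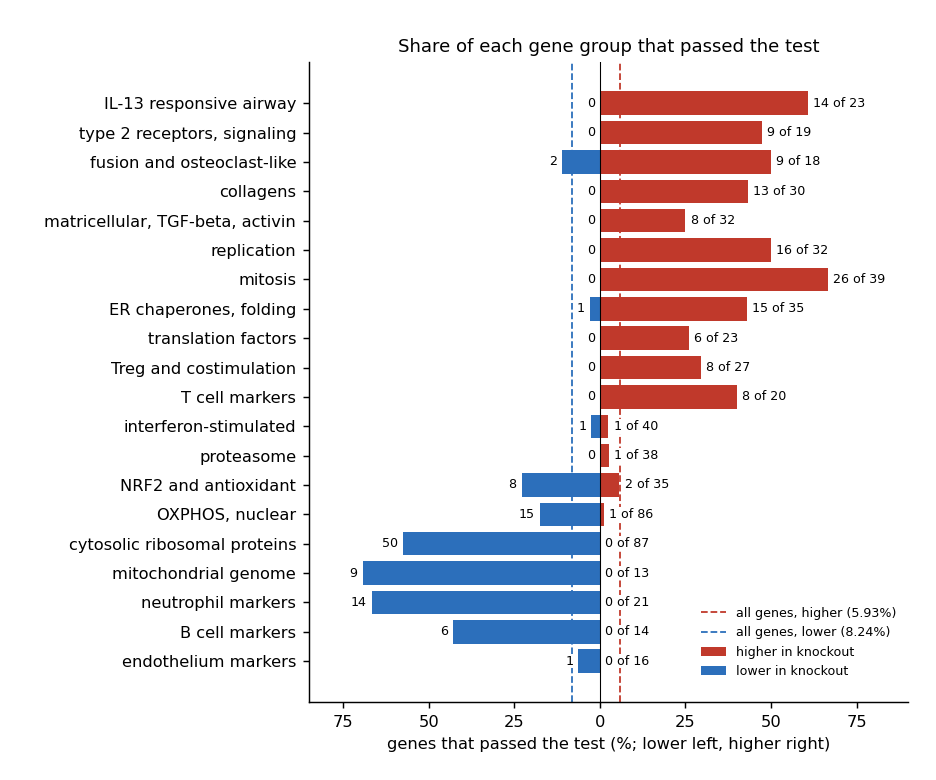
Share of the genes of 20 groups that passed the test (horizontal, %), with higher genes in red to the right and lower genes in blue to the left, counts beside the bars, and dashed lines at the shares over all genes (5.93% and 8.24%). The bar of mitotic genes reaches 26 of 39 to the right, and those of ribosomal (50 lower), mitochondrial genome (9) and neutrophil genes (14) reach far to the left.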

How the data were processed

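Per the labels, total RNA of lung was sequenced in 9 libraries, 3 in each of 3 groups. The deposited values are FPKM per gene, made by the authors. HISAT2, HTSeq, Trimmomatic and the build GRCm38.p6 are named in the submitters' processing notes, and the labels state neither strand nor the treatment of reads that match several genes. In every library 100% of the values were whole multiples of the value of 1 read, to within 0.01 reads, so reads per gene could be recovered. The library sizes behind the FPKM were proportional to median-of-ratios size factors, so the sums of FPKM differ between libraries.

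Genes with a mean of at least 0.2 FPKM over the 9 libraries were tested on log2(FPKM + 0.5) with limma 3.58.1 in R 4.3.3, with a variance trend, all 9 libraries in 1 fit and Benjamini-Hochberg adjustment over the 17716 genes. The fit was tested on simulated data with known changes and 1 spread for all genes. It called 19 of 100 genes changed 2-fold and 93 of 100 changed 4-fold, with 2 false calls. A gene that did not pass is therefore not shown to be unchanged. The limma-voom test on recovered reads called 1407 higher and 1786 lower genes. Other alternatives were pseudocounts, filters, scalings, the libraries in the fit, the variance prior, array weights, and leaving out each OVA library. Removal of the length trend and leaving out DJ1_KO_OVA_263 with wild-type library 6 were chosen after seeing the data.

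The members and gene lists were chosen with earlier results of these data known. The rule for named genes took, by log2 difference, the first 15 rises and first 15 falls whose groups did not overlap and whose higher group averaged at least 1 FPKM (predicted and unnamed genes and pseudogenes left out), up to 6 members of each described list by p and up to 4 more by role, Park7 and called genes within 10 Mb of it, up to 4 zinc finger genes of chromosome 4, and members of families of up to 8 genes. Retroviral loci, pseudogenes and those all-or-none genes that the rule does not name were named after their values were seen, as were the genes singled out beside small counts. Some genes that the rule allows are not reported here. For 117 genes only the identifier is used, and 26 symbols were taken from the reference annotation.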

Additional observations from a re-analysis of the deposited data

How the results depend on the processing

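Of the settings tried, 5 moved the counts of 1051 higher and 1459 lower genes by over 1.5 times in at least 1 direction. With no filter on low values they were 274 and 371, with equal FPKM sums 4432 and 602, with only the 6 OVA libraries in the fit 400 and 731, with array weights 4414 and 4413, and without DJ1_KO_OVA_263 and wild-type library 6 together 225 and 184. Without single libraries they ranged from 125 to 2721 and from 161 to 2973, lowest without DJ1_KO_OVA_267 and highest without DJ1_KO_OVA_266. The cause was not tested. Other pseudocounts, a filter at 1 FPKM, quantile normalization, a fit without variance trend, limma-voom and removal of the length trend stayed within 1.5 times. No paired analysis was possible because the groups share no replicate numbers. No called gene changed sign under any alternative. Of the 314 genes named, 276 were called, and 67 of these kept the call in every alternative that tested them. Without single libraries 9 (DJ1_KO_OVA_266) to 193 (DJ1_KO_OVA_267) of the 276 lost it, with no filter 143, with only the OVA libraries 99, after removal of the length trend 50 and under equal sums 48. Of called genes, 88.0% were higher under equal sums and 41.9% as deposited. Precision is limited by 3 libraries a group.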
